A study of Mus musculus with 11 samples.

Results

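MicroRNAs of true naive CD8+ T cells were compared between mice labelled dirty and mice labelled clean. The comparison rests on 5 of the 11 small RNA libraries of the study, 3 named Dirty_TN (replicates 1, 2 and 3) and 2 named Clean_TN (replicates 2 and 3), chosen by their names in the deposited count table. The other 6 libraries, 3 Clean_VM and 3 Dirty_VM, hold virtual memory cells and enter through a shared estimate of spread, the same contrast in VM cells and the interaction. All 11 libraries came from mouse spleen. CD8+ cells were enriched on magnetic beads and sorted as CD4- CD8+ CD49dlo GFP+ cells, so GFP, which the labels join to the word stamped, is a feature of every group. The TN cells (stamped TN in the labels) were the CD44lo fraction and the VM cells (stamped VM) the CD44hi fraction. Per the labels, 10000 cells of over 95% purity went into each RNA preparation. Strain, age, the meaning of dirty and clean, and the reporter behind GFP are not given in the labels used here. Nothing in them says that replicates came from separate mice, so each p-value measures the spread between these libraries, which may be technical.

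True naive CD8+ T cells have not met antigen and keep low CD44, while virtual memory cells carry a memory surface phenotype without having met foreign antigen. A microRNA (miRNA) is cut from a hairpin precursor, and either the 5p or the 3p arm of the hairpin can be loaded into an Argonaute protein. The loaded arm pairs with messenger RNAs through its seed, bases 2 to 8, and lowers their translation or stability. Resting T cells are known for high miR-150, let-7 and miR-142, and activation lowers some of these while inducing others, among them miR-155, miR-21 and the miR-183/96/182 cluster.

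The miRNAs with the smallest p-values between Dirty_TN and Clean_TN are printed first, because the account of the libraries turns on them, and the let-7 members are printed because they make up the largest share of the counts. Mature sequences are those of RefSeq (GRCm38.p6), which held 442 of the 545 tested rows. Capitals mark the seed.
miR-183-5p: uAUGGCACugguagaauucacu
miR-182-5p: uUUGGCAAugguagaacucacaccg
miR-96-5p: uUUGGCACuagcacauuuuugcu
miR-148a-3p: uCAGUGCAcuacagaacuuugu
miR-128-3p: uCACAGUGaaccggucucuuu
miR-130b-3p: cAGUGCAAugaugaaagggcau
miR-10a-5p: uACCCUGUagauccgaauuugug
miR-27a-5p: aGGGCUUAgcugcuugugagca
miR-674-3p: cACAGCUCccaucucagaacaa
miR-139-3p: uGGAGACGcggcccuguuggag
miR-5121: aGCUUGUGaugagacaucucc
let-7f-5p: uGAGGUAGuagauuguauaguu
let-7a-5p: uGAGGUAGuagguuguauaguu
let-7b-5p: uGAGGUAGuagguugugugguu
let-7g-5p: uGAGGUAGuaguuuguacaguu
let-7d-5p: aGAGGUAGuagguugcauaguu
The let-7 members share the seed GAGGUAG. The miR-183/96/182 cluster members have related but different seeds. The seed of miR-148a-3p is that of miR-148b-3p and miR-152-3p, the seed of miR-130b-3p that of miR-130a-3p, and the seed of miR-10a-5p that of miR-10b-5p, all of which were tested too. miR-378a-5p, the remaining leading miRNA, and miR-150-5p are named only.

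In mm10 coordinates, Mir183 lies at chr6:30169668-30169737, Mir96 at chr6:30169446-30169551 and Mir182 at chr6:30165918-30165992, all on the minus strand and outside any annotated same-strand gene. Mir148a (chr6:51269812-51269910) and Mir10a (chr11:96317165-96317274) have no same-strand host either. The 2 hairpins that give miR-128-3p are intronic, Mir128-1 in R3hdm1 (chr1:128202361-128202430) and Mir128-2 in Arpp21 (chr9:112118636-112118711). Mir5121 (chr7:45126918-45126991) lies within the small nucleolar RNA (snoRNA) gene Snord33, itself inside Rpl13a.

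Total estimated counts as deposited were 9835364 and 3118537 for Clean_TN 2 and 3, and 9399645, 3621364 and 10945831 for Dirty_TN 1, 2 and 3. Between 641 and 790 miRNA names had a count in a TN library, and 3 counts, taken as the limit that a count of 0 allows, correspond to 0.277 to 0.972 CPM (counts-per-million units); such limits cover counting error only. Levels below are CPM on library totals scaled by edgeR's TMM method. Of 2008 rows kept, 545 rows of 524 miRNAs held enough counts to be tested. The T cell miRNAs miR-150-5p, miR-142a-3p and miR-342-3p were abundant in all 5 TN libraries, with lowest values of 66249, 1467 and 2535 CPM, and the myeloid marker miR-223-3p did not exceed 1.54 CPM in any of them.

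Before the groups were compared, the 5 libraries were set against each other, and Dirty_TN 3 lay with the clean libraries. Distance was the root mean square difference in log2(CPM + 1) over the 261 rows with a mean of 10 CPM or more. The distance from Dirty_TN 3 to Clean_TN 2 was 0.27, and to Clean_TN 3 it was 0.46. The clean libraries were 0.42 apart. From Dirty_TN 3 to Dirty_TN 1 and 2 the distances were 0.73 and 0.78, larger than either distance to a clean library. Dirty_TN 1 and 2 were 0.63 apart, and lay 0.72 and 0.74 from Clean_TN 2 and 0.82 and 0.59 from Clean_TN 3, so that Dirty_TN 2 was nearer to Clean_TN 3 than to Dirty_TN 1. Clean_TN 3 and Dirty_TN 2 are the shallower libraries of their groups. Distances between TN and VM libraries ran from 0.7 to 1.08 over 30 pairs, overlapping those between TN libraries, which reached 0.82. For Dirty_TN 3 they ran from 0.82 to 1.08, above each of its distances to the other TN libraries.

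**Figure D1:**
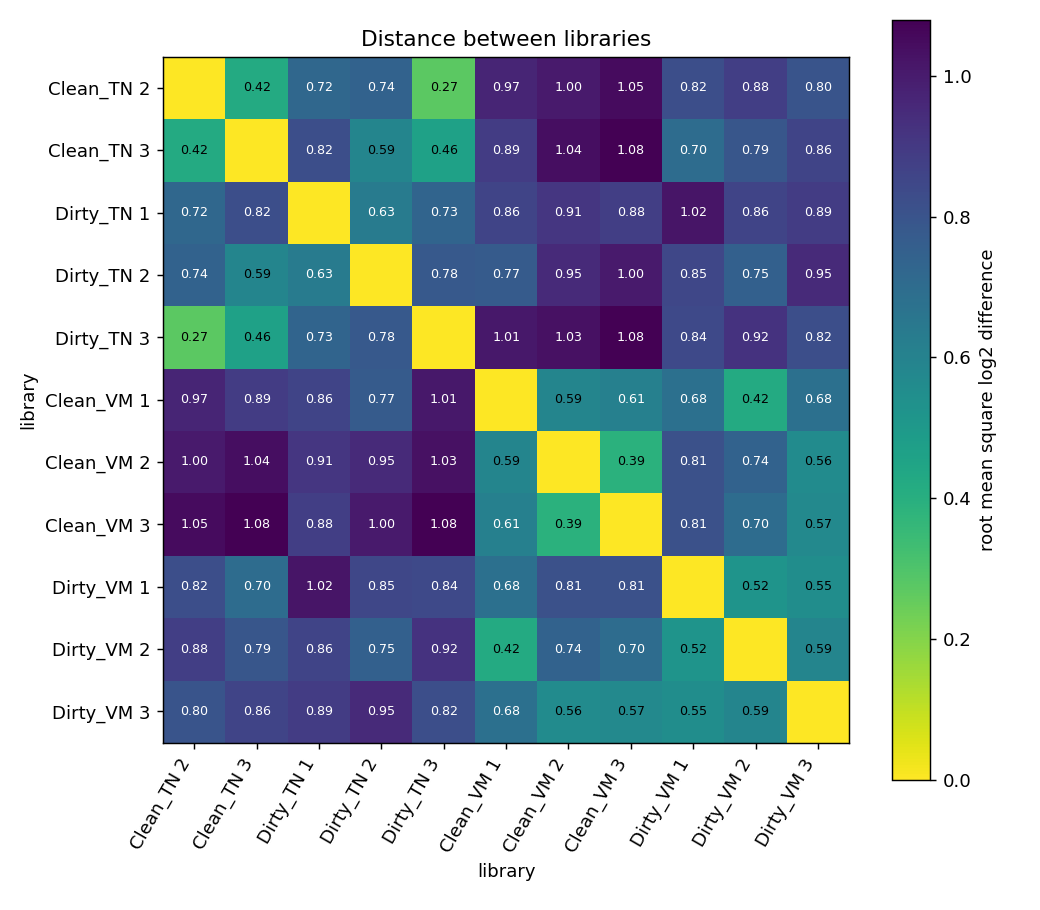
Root mean square difference in log2(CPM + 1) over 261 miRNA rows for each pair of the 11 libraries, with libraries on both axes and the value printed in each square (lighter squares are nearer). Dirty_TN 3 is 0.27 from Clean_TN 2 and 0.46 from Clean_TN 3, against 0.73 and 0.78 from the other Dirty_TN libraries.

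Counts of rows with a 2-fold difference also placed Dirty_TN 3 near the clean libraries. Of the 261 rows, Dirty_TN 1 differed at least 2-fold from Clean_TN 2 in 41 and from Clean_TN 3 in 48, and Dirty_TN 2 in 20 from each. Dirty_TN 1 and 2 differed that much from each other in 8, so by this count Dirty_TN 2 was nearer to Dirty_TN 1 than to Clean_TN 3. Dirty_TN 3 differed that much from Clean_TN 2 in 1 row and from Clean_TN 3 in 2, while the clean libraries differed from each other in 3. In 25 rows both Dirty_TN 1 and 2 were more than 1.5-fold above the higher clean library. Dirty_TN 3 was that far above it in 0 of these, less far above it in 8, within the clean range in 3 and below both clean libraries in 14. The median log2 difference from the clean mean over these 25 rows was 1.1 for Dirty_TN 1 and 2 and -0.1 for Dirty_TN 3. In 10 rows Dirty_TN 1 and 2 were that far below the lower clean library, and Dirty_TN 3 was as far below in 1, miR-5121, less far below in 3, within the clean range in 2 and above both clean libraries in 4. The labels give no library preparation or sequencing batch, and whether the label or the content of Dirty_TN 3 is the odd element was not tested. Calls and list medians are therefore given with and without it.

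With all libraries, no miRNA passed the test between Dirty_TN and Clean_TN. In edgeR's quasi-likelihood test, 0 of 545 rows (0.0%) had an adjusted p under 0.05 by the Benjamini-Hochberg method, and the smallest adjusted p was 0.339. At an unadjusted p under 0.05 there were 38 rows (6.97%). DESeq2 called 3 rows (miR-183-5p and miR-182-5p higher in Dirty_TN, miR-5121 lower), and limma-voom called 0. The median log2 difference over all rows was 0.16 with TMM scaling and -0.025 with library totals alone, so differences are read against a shift of that size. All 3 Dirty_TN values lay outside the clean range on the same side in 127 rows (23.3%), 78 higher (14.3%) and 49 lower (8.99%). Of the 261 rows of 10 CPM or more this held in 65 (24.9%), 39 higher (14.9%) and 26 lower (9.96%).

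Without Dirty_TN 3, 28 of 504 rows (5.56%) passed in edgeR, 14 higher in Dirty_TN (2.78%) and 14 lower (2.78%). Leaving out any of the other 4 TN libraries gave 0, with 8 to 23 rows at an unadjusted p under 0.05 in edgeR. When only TN libraries were fitted, leaving out Dirty_TN 3 gave 45 calls, among them all 28. These calls compare 2 libraries with 2. They describe how Dirty_TN 1 and 2 stand against the clean libraries, and the library left out was the Dirty_TN library nearest to the clean ones. In the following paragraphs "passed" refers to this reduced fit unless it is said otherwise.

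The cluster of miR-183 and miR-182, of which miR-182 is induced by interleukin 2 in activated helper T cells, led the comparison. miR-183-5p was at 70.6 and 69.3 CPM in Clean_TN 2 and 3 and at 372, 226 and 104 CPM in Dirty_TN 1, 2 and 3. All 3 dirty libraries were above both clean ones, and Dirty_TN 3 was the nearest to them. The log2 difference was 1.74 ± 0.42 (SE, 3 against 2 libraries; edgeR adjusted p = 0.339) and 1.87 ± 0.27 without Dirty_TN 3 (adjusted p = 0.00381). Over the 21 alternatives its edgeR, DESeq2 or voom adjusted p ran from 7.98e-06 to 0.997 and passed in 4.

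miR-182-5p from the same cluster followed that order, at 179 and 171 CPM in Clean_TN 2 and 3 and 726, 395 and 267 CPM in Dirty_TN 1, 2 and 3. The groups did not overlap, and the log2 difference was 1.4 ± 0.35 (edgeR adjusted p = 0.339). It passed in 4 of 21 alternatives, with adjusted p from 0.000571 to 0.997. miR-96-5p, the third member, was scarce at 7.47 and 6.33 CPM in the clean and 8.22, 8.08 and 9.1 CPM in the dirty libraries. Its log2 difference was 0.29 ± 0.26, and Dirty_TN 3 was the highest library.

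Other leading miRNAs with higher estimates in Dirty_TN included miR-148a-3p, an miRNA known from activated and effector T and B cells. It was at 593 and 674 CPM in Clean_TN 2 and 3 and at 1738, 1585 and 750 CPM in Dirty_TN 1, 2 and 3. Dirty_TN 1 and 2 stood more than 2-fold above the clean libraries and Dirty_TN 3 just above them. The log2 difference was 1.1 ± 0.32 (edgeR adjusted p = 0.559), it passed without Dirty_TN 3, and over 21 alternatives the adjusted p ran from 0.00326 to 0.997. Of its seed family, miR-148b-3p had an estimate of 0.01 ± 0.21, with 776 and 977 CPM in the clean and 905, 1021 and 728 CPM in the dirty libraries.

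miR-128-3p is counted once for each of its 2 hairpins. For mir-128-1 it was at 1573 and 1330 CPM in Clean_TN 2 and 3 and 4182, 2519 and 1694 CPM in Dirty_TN 1, 2 and 3. For mir-128-2 the values were 631 and 534 CPM against 1530, 894 and 641 CPM. The dirty libraries stood above the clean ones in the same order in both rows, which carry the same mature sequence, and how reads were divided between them is not given in the sources used here. Estimates were 0.95 ± 0.32 and 0.81 ± 0.31 (edgeR adjusted p = 0.559 for each), and only the mir-128-1 row passed without Dirty_TN 3.

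miR-674-3p and miR-139-3p, both minor or little studied products, separated Dirty_TN 1 and 2 from all other TN libraries. miR-674-3p was at 103 and 93.7 CPM in the clean and 307, 218 and 90.6 CPM in the dirty libraries. miR-139-3p was at 97.3 and 103 CPM against 279, 214 and 93.1 CPM. In both, Dirty_TN 3 was below both clean libraries, so the groups overlapped. The log2 differences were 1.06 ± 0.41 and 0.96 ± 0.38 over all libraries (edgeR adjusted p = 0.559 for each), and both passed without Dirty_TN 3.

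The remaining higher estimates among the 12 leading rows were smaller. miR-130b-3p was at 38 and 28.9 CPM in Clean_TN 2 and 3 and 65.9, 58 and 42.9 CPM in Dirty_TN 1, 2 and 3. miR-27a-5p, the minor arm of its hairpin, was at 77.9 and 97 CPM against 171, 157 and 102 CPM. miR-10a-5p, encoded among the Hox genes, was at 28 and 31.9 CPM against 47, 42.1 and 42.1 CPM. None of these had overlapping groups, and none passed with all libraries or without Dirty_TN 3, although miR-27a-5p had an edgeR adjusted p of 0.0404 when TN libraries alone were fitted without it (lowest of 21 alternatives, the highest being 0.997). miR-10a-5p was the row of the 12 in which Dirty_TN 3 did not stand apart from Dirty_TN 2.

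Lower estimates in Dirty_TN were led by miR-5121. It was at 206 and 208 CPM in Clean_TN 2 and 3 and at 55.9, 90.6 and 133 CPM in Dirty_TN 1, 2 and 3. Every dirty library was below the clean ones, Dirty_TN 3 included. The log2 difference was -1.15 ± 0.3 (edgeR adjusted p = 0.339) and -1.73 ± 0.26 without Dirty_TN 3 (adjusted p = 0.00381), with adjusted p from 0.00373 to 0.997 over 21 alternatives. miR-378a-5p, the minor arm of a hairpin in the metabolic regulator gene Ppargc1b, was at 152 and 139 CPM against 65, 78.5 and 128 CPM. Its groups did not overlap either, with an estimate of -0.68 ± 0.26 (edgeR adjusted p = 0.559) that passed without Dirty_TN 3.

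**Figure D2:**
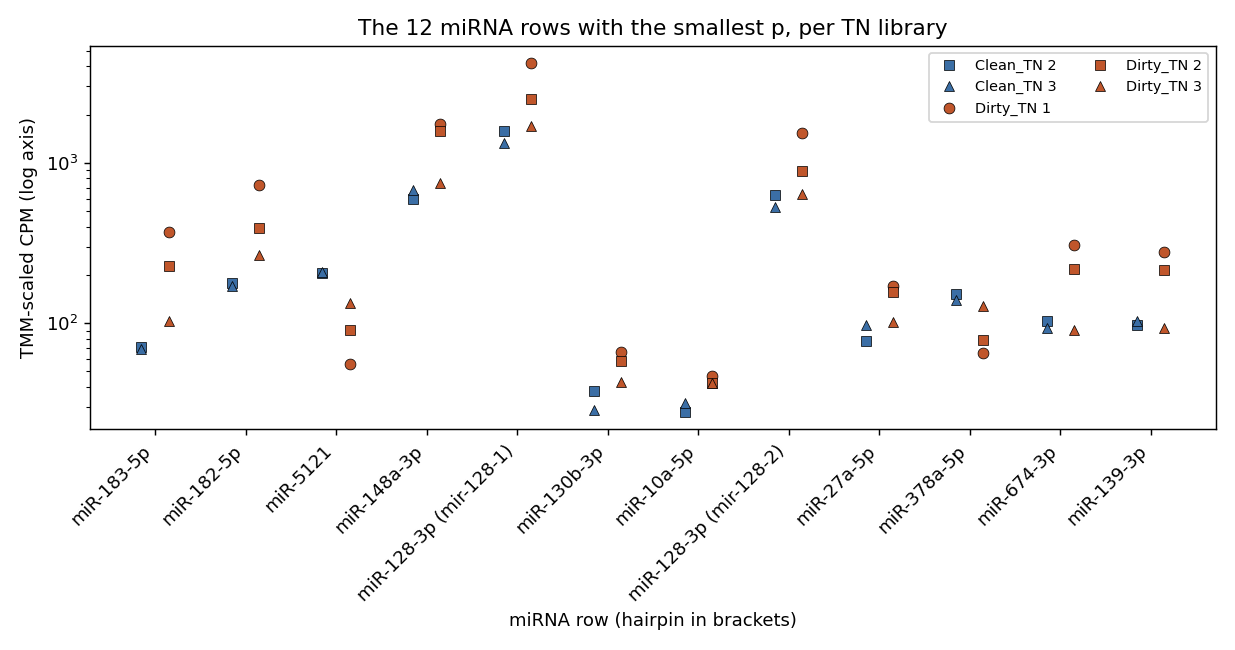
Level of the 12 leading miRNA rows (x axis) in each TN library (y axis, TMM-scaled CPM on a log axis), Clean_TN in blue and Dirty_TN in orange, with the symbol giving the replicate number. Dirty_TN 3 (orange triangles) is the dirty library nearest to the clean ones in all 12 rows, tied with Dirty_TN 2 for miR-10a-5p, and lies below both clean libraries for miR-674-3p and miR-139-3p.

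miR-5121 was not the only snoRNA-derived entry with lower values. Of the tested miRNAs with a RefSeq hairpin, 11 overlapped an annotated snoRNA, and without Dirty_TN 3, 10 of these were tested and 3 passed as lower, against 2.78% of all rows: miR-5121, miR-1291 (in Snora34, chr15:98519762-98519878) and miR-664-3p (in Snora36b, chr1:185242975-185243043). miR-1291 was at 38.4 and 38.3 CPM in the clean libraries and 16.7, 19 and 31.9 CPM in Dirty_TN 1, 2 and 3. miR-664-3p was at 83.1 and 100 CPM against 31.5, 53.4 and 94 CPM. Over all 5 libraries 8 of the 11 estimates were below 0 and 2 above, with a median log2 difference of -0.46 against 0.16 over all rows, and without Dirty_TN 3 the median was -0.81 against -0.06. The set was put together after the values were seen, and miR-664-5p, from the other arm of the miR-664-3p hairpin, had an estimate of 0.68 ± 0.29. Arms of the same hairpin are counted separately in it. For miR-677-5p, miR-677-3p, miR-3068-5p and miR-3068-3p the overlapping snoRNA entry bears only the name of the miRNA gene, Mir677 or Mir3068. Their estimates, -0.83, -1.11, -0.46 and -0.21, are among the 8 below 0.

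The more abundant miRNAs that passed without Dirty_TN 3 included both rows of let-7f-5p, higher, and miR-150-5p, lower. let-7f-5p from let-7f-2 was at 82846 and 95208 CPM in Clean_TN 2 and 3 and 181772, 142561 and 87152 CPM in Dirty_TN 1, 2 and 3. miR-150-5p, a repressor of Myb that falls when T cells are activated, was at 127385 and 134280 CPM against 66249, 90255 and 129817 CPM. For each, Dirty_TN 3 lay within the clean range. As shares of all counts, let-7f-5p took 18.11% and 19.75% in the clean and 29.28%, 26.68% and 19.17% in the dirty libraries, and miR-150-5p took 14.39% and 14.44% against 5.53%, 8.72% and 14.76%. With all libraries the log2 differences were 0.62 ± 0.26 (edgeR adjusted p = 0.559) and -0.46 ± 0.24 (edgeR adjusted p = 0.611).

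Among the others that passed was miR-151-5p, with the largest increase. It was at 14.9 and 13.9 CPM in the clean libraries, at 79.8 and 147 CPM in Dirty_TN 1 and 2, and at 10.3 CPM in Dirty_TN 3, the lowest value of the 5. Lower were miR-221-3p at 370 and 348 CPM in the clean and 167, 240 and 334 CPM in the dirty libraries, and miR-30b-5p at 1460 and 1437 CPM against 522, 912 and 1479 CPM. miR-221, a repressor of the cell cycle inhibitor p27, did not overlap between the groups over all 5 libraries, and miR-30b-5p did. miR-342-3p, a lymphocyte miRNA in an intron of Evl, was at 4774 and 5588 CPM in the clean libraries and 2535, 3433 and 5286 CPM in Dirty_TN 1, 2 and 3. The rest of the higher set was miR-130b-5p, miR-671-3p, miR-1964-3p, miR-3474 and miR-8103, and of the lower set miR-361-3p, miR-211-5p, miR-339-5p, miR-30c-5p, miR-1249-3p and let-7f-2-3p. Over all 28 rows Dirty_TN 3 was within the clean range in 8, on the other side of it from Dirty_TN 1 and 2 in 10, and on their side in 10.

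**Figure D3:**
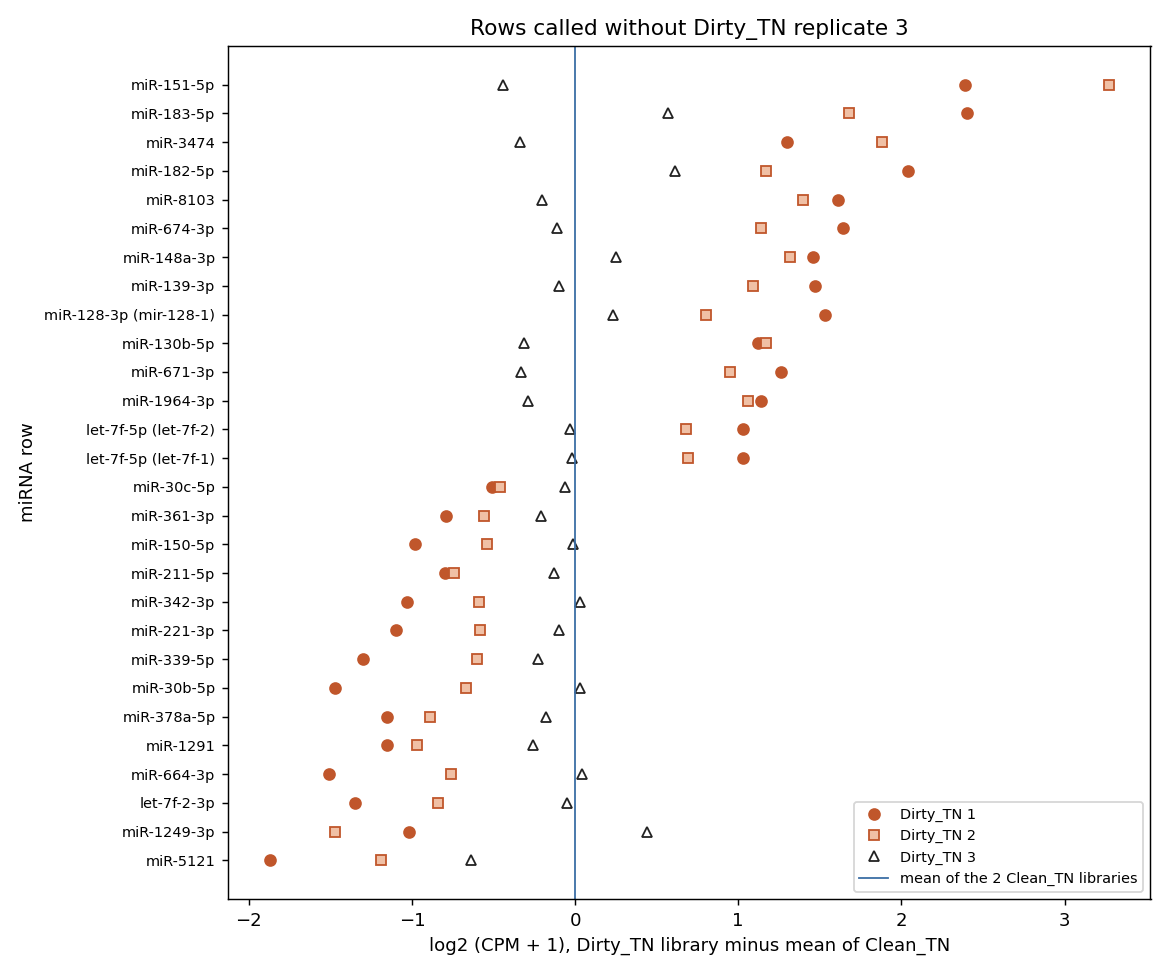
Difference of each Dirty_TN library from the mean of the Clean_TN libraries (x axis, log2(CPM + 1)) for the 28 miRNA rows that passed when Dirty_TN 3 was left out (y axis). Dirty_TN 1 and 2 chose the rows and are away from 0 in all of them, while the open triangles of Dirty_TN 3, which was not used to choose them, cluster near 0, furthest from it for miR-5121, miR-182-5p and miR-183-5p.

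The miRNA families were then described over all tested members, of which 0 passed with all libraries. All 10 let-7 members had estimates above 0, with a median log2 difference of 0.41 against 0.16 over all rows (332 rows above 0 and 213 below). With library totals in place of TMM, 8 of the 10 were above 0 and the median was 0.2. The members were not alike. let-7f-5p, let-7a-5p and let-7b-5p had estimates of 0.62, 0.55 and 0.61, while let-7g-5p, with the same seed and a similar abundance to let-7f-5p, had 0.1 ± 0.18 at 149878 and 153444 CPM in the clean and 195366, 142357 and 150934 CPM in the dirty libraries. let-7d-5p was at 14040 and 13759 CPM against 18465, 15162 and 13233 CPM. Without Dirty_TN 3 the median was 0.42, against -0.06 over all rows, and 1 of 10 passed as higher (2.78% of all rows). Per library, the median over the 10 members was 0.64, 0.58 and -0.08 above the clean mean in Dirty_TN 1, 2 and 3.

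The T cell activation and memory list had 12 tested members, 9 with estimates above 0 and 3 below and a median of 0.39, which was 0.13 without Dirty_TN 3. Groups did not overlap in 7 on the higher and 2 on the lower side, against 14.3% and 8.99% of all rows. Without Dirty_TN 3 miR-183-5p and miR-182-5p passed as higher and miR-221-3p as lower, against 2.78% of all rows in each direction. miR-21a-5p, an activation-induced miRNA that is also higher in memory cells, was at 8498 and 10227 CPM in Clean_TN 2 and 3 and 11907, 11900 and 14751 CPM in Dirty_TN 1, 2 and 3. Here Dirty_TN 3 was the highest library, and the estimate was 0.46 ± 0.19 (edgeR adjusted p = 0.559). miR-155-5p, induced by antigen receptor and inflammatory signals, was at 1164 and 1225 CPM against 1369, 1652 and 1449 CPM, without overlap and with an estimate of 0.32 ± 0.23. miR-132-3p, scarce and activity-induced, was at 17.1 and 19.6 CPM against 28.5, 28 and 24.3 CPM, again with all dirty libraries above the clean ones. miR-146a-5p, a brake on NF-kB signalling, overlapped, at 9405 and 10362 CPM against 9147, 9931 and 8443 CPM. miR-21a-5p, miR-155-5p and miR-132-3p are therefore rows in which Dirty_TN 3 stood on the dirty side, and none of them passed with or without that library. Since miR-21a-5p, miR-155-5p and miR-146a-5p were also listed as markers of CD44hi cells, their values bear on the purity of the CD44lo gate. The first 2 were higher in all dirty libraries and miR-146a-5p overlapped. In each of the 12 leading rows, the Clean_VM mean lay on the same side of the Clean_TN mean as the Dirty_TN mean. Means in Clean_TN, Dirty_TN and Clean_VM were 175, 463 and 606 CPM for miR-182-5p and 207, 93.1 and 120 CPM for miR-5121. For miR-139-3p they were 100, 195 and 824 CPM. These rows were chosen by their TN difference, Clean_TN enters both comparisons, and the purity was not tested further.

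Of the 10 tested miRNAs of resting lymphocytes, 4 had estimates above 0 and 6 below, with a median of -0.06, and 1 above and 9 below with library totals. Without Dirty_TN 3 the median was -0.32, and miR-150-5p and miR-342-3p passed as lower and miR-128-3p as higher, against 2.78% of all rows in each direction. The hematopoietic miR-142a-3p overlapped between the groups, at 1467 and 1761 CPM in the clean and 1967, 1617 and 1517 CPM in the dirty libraries. miR-26a-5p (mir-26a-2 row) was slightly lower in all dirty libraries, at 24312 and 25114 CPM against 21891, 21830 and 21720 CPM, with an estimate of -0.18 ± 0.16. Among 11 tested miRNAs that inflammation induces in immune cells, 7 of which stand on the activation list too, 6 estimates were above 0 and 5 below, with a median of 0.19 that was -0.01 with library totals and -0.01 without Dirty_TN 3.

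The other families are given with their medians over all libraries and, second, without Dirty_TN 3, where the median over all rows was -0.06. The miR-17-92 cluster and its paralogs, which promote lymphocyte proliferation, had 5 of 13 estimates above 0 and medians of -0.03 and -0.48. The miR-30 family had 1 of 5 above 0 and medians of -0.15 and -0.47. miR-30b-5p and miR-30c-5p passed as lower without Dirty_TN 3 (2.78% of all rows did), while miR-30d-5p, its most abundant member, had an estimate of 0.24 ± 0.24. The 4 members of the miR-181 family, which tunes T cell receptor sensitivity, were all above 0 with medians of 0.34 and 0.27, and miR-181a-5p was at 1654 and 1526 CPM in the clean and 2212, 2223 and 1439 CPM in the dirty libraries. All 3 members of the miR-29 family, which targets T-bet and interferon gamma, were below 0 with medians of -0.17 and -0.42, and the miR-23/27/24 clusters had 1 of 5 above 0 with medians of -0.06 and -0.33. The 3 members of the miR-148a-3p seed family had medians of 0.62 and -0.09. For the 6 members of the miR-15/16 family the medians were 0.32 and 0.33, for the 7 of the group of miR-99, miR-100, miR-125 and miR-10 they were 0.37 and 0.03 (all above 0 over all libraries, 5 of 7 with library totals or DESeq2 size factors), and for the 4 arms of miR-151 and miR-28 they were 0.55 and 0.59. Medians were -0.03 and -0.39 over 18 members of the miR-297, miR-466, miR-467 and miR-669 group of the Sfmbt2 intron and 0.16 and -0.33 over the imprinted Dlk1-Dio3 cluster (13 members, 11 of them tested without Dirty_TN 3), with values of a few CPM for most members of the last. The 8 tested members of the X-linked cluster of miR-322, miR-503 and miR-450 had medians of 0.69 and 0.72 (7 tested without Dirty_TN 3) at summed levels of 55.7 and 36.4 CPM in the clean and 111, 56.5 and 51.1 CPM in the dirty libraries.

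**Figure D4:**
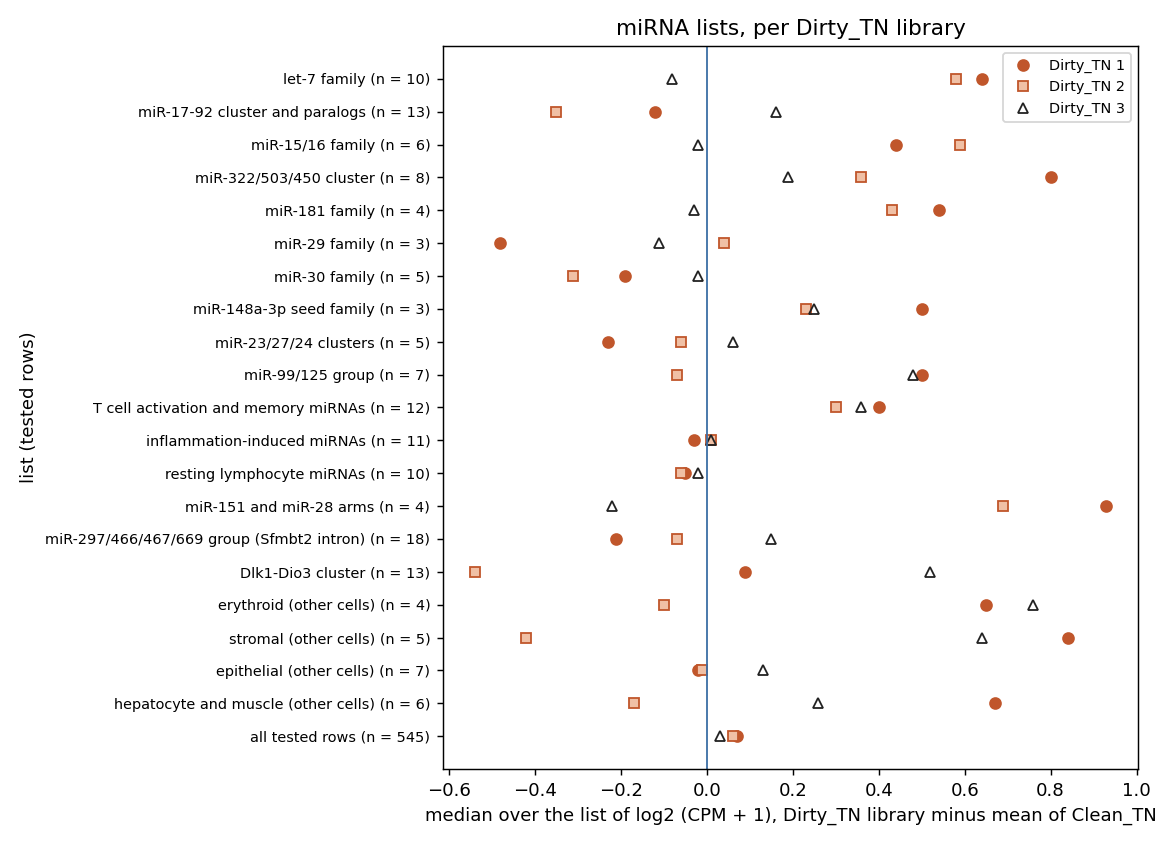
Median over the tested members of each miRNA list (y axis) of the difference in log2(CPM + 1) between each Dirty_TN library and the mean of the Clean_TN libraries (x axis). Dirty_TN 1 and 2 lie at 0.64 and 0.58 for the let-7 family with Dirty_TN 3 at -0.08, whereas Dirty_TN 3 lies at 0.36 beside 0.4 for Dirty_TN 1 on the activation and memory list, and at 0.76 beside 0.65 for the erythroid markers.

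Arms of the same hairpin did not always differ in the same direction. Both arms reached 10 CPM in 51 hairpins, and in 30 of them the arms had estimates of opposite sign. Of all 545 rows, 332 had estimates above 0 and 213 below, so unrelated rows would often differ in sign too. Some of the pairs also lay near 0, such as miR-142a with -0.05 for the 5p and 0.08 for the 3p arm. The log2 ratio of the 5p to the 3p arm uses values of the same library, so library scaling cancels in it. Its median absolute distance from the clean mean was 0.63 for Dirty_TN 1 and 2 averaged and 0.21 for Dirty_TN 3. The clean libraries were 0.3 from each other, a larger measure than the distance of either from their mean, so the values are not alike. The distance from the clean mean was 1 or more in 13 hairpins for Dirty_TN 1 and 2 averaged and in 0 for Dirty_TN 3.

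For miR-150 the log2 arm ratio was 7.22 and 7.35 in Clean_TN 2 and 3 and 5.36, 6.06 and 7.17 in Dirty_TN 1, 2 and 3. The 5p arm dominated in every library, and less so in Dirty_TN 1 and 2. For miR-342 the ratio was -3.34 and -3.66 in the clean and -1.26, -1.9 and -3.37 in the dirty libraries, and for miR-151 it was -3.9 and -4.33 against -2.33, -1.48 and -4.13. In both the minor 5p arm took a larger part of the total in Dirty_TN 1 and 2, and Dirty_TN 3 was at the clean value. For miR-139 the ratio was 4.94 and 4.9 against 3.38, 3.74 and 4.94. miR-139-5p itself had an estimate of -0.08 ± 0.18, at 2984 and 3086 CPM in the clean and 2901, 2866 and 2862 CPM in the dirty libraries, so that the larger difference lay in the minor 3p arm. For miR-378a the estimates of the arms had opposite signs. Its major arm miR-378a-3p was at 6995 and 7051 CPM against 9584, 8208 and 7635 CPM, with an estimate of 0.27 ± 0.27. The minor arm miR-378a-5p was lower, with an estimate of -0.68 ± 0.26.

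**Figure D5:**
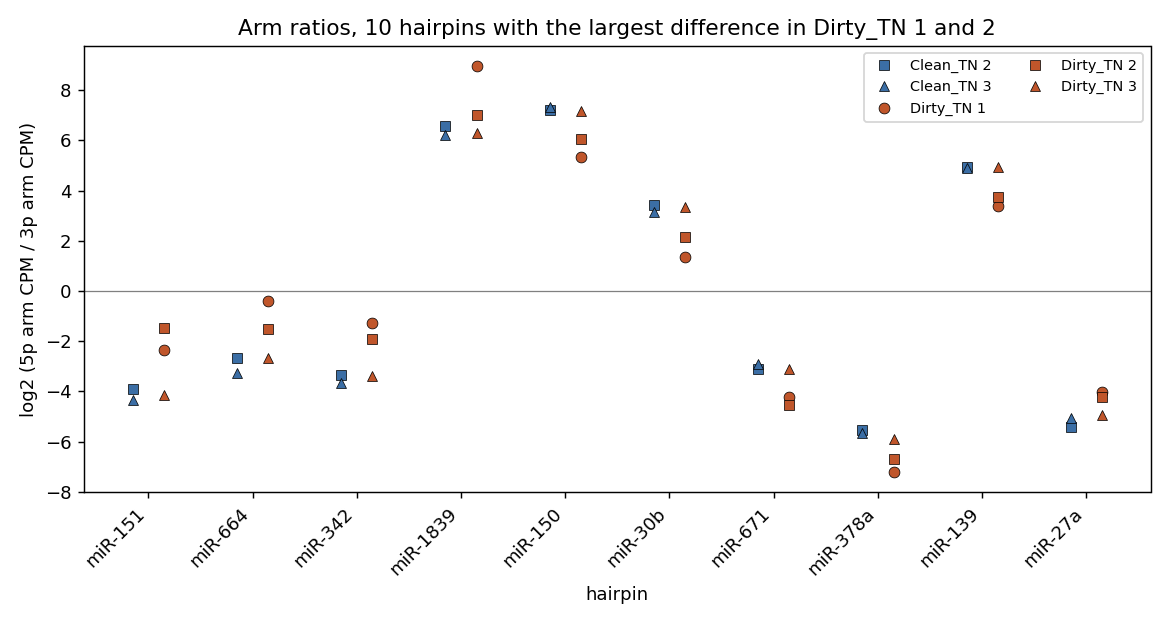
Log2 ratio of the 5p to the 3p arm (y axis) in each TN library for the 10 hairpins (x axis) with the largest difference of Dirty_TN 1 and 2 from the clean mean, Clean_TN in blue and Dirty_TN in orange. The hairpins were chosen by Dirty_TN 1 and 2, and in each of them Dirty_TN 3 (orange triangles) is nearer to the clean libraries than Dirty_TN 1 and 2 are.

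Properties of the mature sequence were weakly related to the differences. Over the 212 rows of 10 CPM or more with a RefSeq sequence, the difference from the clean mean had a correlation across rows with GC share of 0.09, 0.04 and 0.0 in Dirty_TN 1, 2 and 3. With length it was -0.04, -0.12 and 0.08, and with the mean level 0.13, 0.13 and -0.16. Rows share libraries and are not independent.

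Depth differed within both groups, with Clean_TN 3 and Dirty_TN 2 under 5000000 counts and the other TN libraries above. Within the deeper libraries (Dirty_TN 1 and 3 against Clean_TN 2) the log2 difference of miR-183-5p was 1.47, and within the shallower pair (Dirty_TN 2 against Clean_TN 3) 1.69. For miR-5121 the values were -1.25 and -1.19, and for miR-148a-3p 0.94 and 1.23. These kept their direction in both depth classes, and each class holds too few libraries for a test of its own.

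Among markers of other cells, 0 of 25 tested rows passed with all libraries. Of those still tested without Dirty_TN 3, 0 passed there, and miR-133a-3p had an adjusted p under 0.05 in 1 of 21 alternatives. The 4 tested erythroid markers summed to 76.8 and 59.6 CPM in the clean and 148, 69.2 and 117 CPM in the dirty libraries, a range that overlaps, with 1 row without overlap on the higher side (14.3% of all rows). All 4 erythroid estimates were above 0 with TMM and 3 with library totals or DESeq2 size factors, and their median was 0.85 over all libraries and -0.08 without Dirty_TN 3. Their defining member miR-451a was at 16.9 and 13.3 CPM against 9.77, 10.4 and 26.5 CPM. Of 2 myeloid markers only miR-223-3p was tested, at 0.257 to 1.54 CPM. Endothelial and platelet markers (2 of 2 tested) summed to 15.3 to 29.7 CPM and stromal markers (5 of 7 tested) to 41 to 75.1 CPM in the TN libraries. The 7 epithelial markers summed to 2310 and 2167 CPM in the clean and 3182, 2279 and 2696 CPM in the dirty libraries. The 6 hepatocyte and muscle markers summed to 1988 and 1856 CPM against 3170, 2044 and 2625 CPM, mostly miR-122-5p, the liver miRNA, at 1071 and 851 CPM against 1822, 922 and 1688 CPM. In each of these last sets Dirty_TN 1 and 3 had the highest sums. Their part in the differences was not tested.

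The same contrast in virtual memory cells was set beside that in true naive cells. Its group means come from other libraries, but the VM libraries also entered the estimate of spread used for the TN calls. Between Dirty_VM and Clean_VM, 0 of 545 rows (0.0%) passed in edgeR, with 81 at an unadjusted p under 0.05 (14.9%), 19 calls in DESeq2 and 1 in limma-voom. The interaction, which tests whether the dirty minus clean difference itself differs between TN and VM cells, had 0 calls (0.0%) in edgeR with a smallest adjusted p of 0.0935, 93 rows at an unadjusted p under 0.05 (17.1%), 41 calls in DESeq2 and 0 in limma-voom. Without Dirty_TN 3 it had 73 of 504 (14.5%).

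The 28 rows that passed in TN cells without Dirty_TN 3 mostly had the opposite sign in VM cells. The estimate for VM cells was of the opposite sign in 26 of the 28, against 66.7% of all 504 rows. In 19 of the 28 the VM libraries also did not overlap in that opposite direction, against 17.9% of all rows. The VM libraries helped to set the spread by which the 28 were called, so this count is not independent of that choice. All 28 also passed when only TN libraries were fitted without Dirty_TN 3. The exceptions in sign were miR-128-3p (mir-128-1) and miR-1249-3p.

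Rows of this kind, picked here after their values were seen, are shown library by library. let-7f-5p took 26.8%, 26.39% and 26.74% of counts in Clean_VM 1, 2 and 3, near the 29.28% and 26.68% of Dirty_TN 1 and 2, and 18.22%, 20.18% and 17.15% in the Dirty_VM libraries, near the 18.11% to 19.75% of Clean_TN and Dirty_TN 3. miR-151-5p was at 362, 445 and 316 CPM in Clean_VM and at 17.9, 74 and 48.3 CPM in Dirty_VM. miR-361-3p, from an intron of Chm, was at 965 and 946 CPM in Clean_TN and 553, 646 and 825 CPM in Dirty_TN 1, 2 and 3, but at 601, 505 and 553 CPM in Clean_VM and 946, 1066 and 921 CPM in Dirty_VM. Its interaction estimate was -1.32 ± 0.27, with an unadjusted p of 0.000323 in edgeR, where no row passed after adjustment (smallest adjusted p 0.0935). For let-7f-5p and miR-361-3p, Dirty_TN 1 and 2 thus stood near Clean_VM, and Dirty_VM near Clean_TN. Some other rows among the 28 showed only a part of this division. miR-183-5p was at 321, 300 and 336 CPM in Clean_VM, with Dirty_TN 1 and 2 on either side at 372 and 226 CPM. In Dirty_VM it was at 182, 311 and 218 CPM. All these values were above the 69.3 to 70.6 CPM of Clean_TN. miR-150-5p was at 77261, 103730 and 79035 CPM in Clean_VM and 86954, 78904 and 94645 CPM in Dirty_VM, all below Clean_TN. Its shares of counts in Dirty_TN 1 and 2, 5.53% and 8.72%, stood below and within the Clean_VM range of 7.04% to 10.07%. miR-151-5p in Dirty_TN 1 and 2 lay below every Clean_VM library. The labels used here give no preparation or sequencing batch against which these values could be set.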

How the data were processed

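The authors deposited estimated counts (expected counts) of reads per mature miRNA and hairpin, not scaled between libraries. The genome build is mm10 per the submitters' processing notes, and the aligner, counting program and annotation are not given in the sources used here. Per the labels' protocols, 60 to 100 ng of RNA entered the NEBNext Small RNA protocol, and inserts spanned roughly 18 to 35 bp. Of 2128 rows, 120 with the name and counts of another row (0.89% of counts) were dropped. Estimated counts were rounded, rows filtered with filterByExpr, and 1 quasi-likelihood model (robust, TMM scaling) fitted over all 11 libraries in 4 groups with edgeR 4.0.16; tests were two-sided, adjusted over 545 rows. SE is the absolute log2 difference over the square root of F. The script was tested on simulated data. These had less spread between libraries than the real data and no outlying library, so they do not measure how many differences would be missed here. Hosts come from the mm10 gene annotation supplied. DESeq2 1.42.0 and limma 3.58.1 (voom) were alternatives.

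The text names the 12 rows of 10 CPM or more with the smallest p-values, the 6 most abundant miRNAs, their partner arms and list members. After the values were seen, the 28 rows that passed without Dirty_TN 3 and the miRNAs overlapping annotated snoRNAs were added. The libraries compared and the lists were chosen with earlier results of these data known. For a miRNA on several rows, lists used the most abundant row.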

Additional observations from a re-analysis of the deposited data

How the results depend on the processing

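For Dirty_TN against Clean_TN, the count of 0 calls stood with limma-voom, DESeq2 size factors, library totals, a filter of 10 CPM in 2 libraries, rows summed per miRNA, depth class as a term and TN libraries only. DESeq2 called 3 rows, and no filter beyond 1 count gave 4 of 1163. Leaving out 1 library gave 0 to 28 calls, and, in TN libraries only (chosen after seeing the data), 0 to 45; in each case the top value is that without Dirty_TN 3. For 19 named rows followed over the alternatives (399 values), 0 reversed and 37 newly passed, 30 of them without Dirty_TN 3. For the interaction, DESeq2 called 41 (285 adjusted p-values not given), no filter 30, the 10 CPM filter 16, and leaving out 1 TN library 0 to 73. For Dirty_VM against Clean_VM, DESeq2 called 19 (264 not given), limma-voom 1, library totals 2, no filter 16, the 10 CPM filter 2 and VM libraries only 18. The causes were not tested.

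With the replicate number as a block, the TN comparison had 0 calls, also with the block nested in cell type, and so did the interaction and the VM comparison. Over rows, deviations from the group means correlated at -0.68 for the libraries numbered 2 and at -0.3 for those numbered 3. The 2 Clean_TN libraries deviate from their mean in mirror image, so Clean_TN 3 and Dirty_TN 2, both shallower, correlated at 0.68. These correlations therefore cannot decide whether the numbers pair the samples. With 2 Clean_TN libraries, 1 library can decide any call.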
